A study of Mus musculus with 2 samples.

Results

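The genes described here are 40 mouse genes of fatty acid uptake, lipolysis and mitochondrial beta-oxidation. They were chosen by name and matched by symbol in the annotation of the deposited transcript tables, where all 40 were found among 55536 annotated genes, of which 22015 were nuclear protein-coding genes. Levels were measured by total RNA sequencing of gastrocnemius, the large calf muscle, from 2 male B6CASTF1/J (B6Cast F1) mice aged 25 days, which come from a first-generation cross between C57BL/6J and CAST/EiJ mice. For each of them 1 library was made, with 300 ng of RNA as input, and the labels name no treatment or engineered allele. The libraries form 1 group, so no condition was compared, and they are called animal 1 and animal 2 after their biological replicate numbers. Both carry the same donor entry, although the sample descriptions number them as different males.

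Muscle fibres take fatty acids from the blood after lipoprotein lipase has freed them from triglyceride on the vessel wall, or from their own lipid droplets by lipolysis. Each fatty acid is then joined to coenzyme A, passed into the mitochondrion through the carnitine shuttle and shortened by repeated rounds of dehydrogenation, hydration, a further dehydrogenation and thiolysis. Electrons from the acyl-CoA dehydrogenases reach the respiratory chain through the electron transfer flavoprotein. Slow and other oxidative fibres are known to rely on this pathway more than fast glycolytic fibres, and the gastrocnemius of the mouse is mostly fast.

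Expected counts, which need not be whole because reads that fit several transcripts are divided among them, summed to 35098487 in animal 1 and 37428588 in animal 2. Per gene of the pathway they ran from 127 to 14878 in animal 1 and from 162 to 14404 in animal 2. These counts and the levels below come from the authors' first quantification, based on a transcriptome alignment, and a second one, made by another method on the same libraries, was used as a check. The tissue label was checked against marker genes. All 7 fast fibre markers were detected, with a median of 9822 TPM in animal 1 and 8797 TPM in animal 2 (TPM is the deposited level per length of transcript, as a share of all transcripts). All 7 slow fibre markers were detected too, with summed levels of 1150 TPM in animal 1 and 2143 TPM in animal 2. None of 5 hepatocyte markers reached 1 TPM in both animals. Of 6 cardiac markers 2 were detected, with Myh6 at 58.5 TPM in animal 1 and 78.2 TPM in animal 2. Of 7 macrophage markers 5 were detected. Of 6 brown adipocyte markers, Ucp1 and Elovl3 were listed at 0 in both animals and Cidea and Dio2 were under 1 TPM. The other two, which muscle also expresses, were detected, Cox7a1 with 367 TPM in animal 1 and 428 TPM in animal 2 and Ppargc1a with 42.5 TPM in animal 1 and 37.6 TPM in animal 2, for summed levels of the list of 410 TPM in animal 1 and 466 TPM in animal 2. In such whole tissue, fewer cells of a type and less RNA per cell cannot be told apart.

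All 40 genes were detected, meaning TPM of 1 or more in both animals, against 45.1% of nuclear protein-coding genes and 19.4% of all annotated genes. Their median level was 47.2 TPM in animal 1 and 48.2 TPM in animal 2, a mean of 47.7 ± 0.750 TPM (SD, n = 2). The median over detected nuclear protein-coding genes was 6.54 TPM in animal 1 and 7.05 TPM in animal 2. Of the 40 genes, 29 stood above the 75th percentile of that set and 22 above the 90th. Together they made up 0.621% of the TPM of nuclear protein-coding genes in animal 1, against 0.653% in animal 2. In the first quantification the 5 highest, Fabp3, Acadvl, Hadhb, Acadm and Hadha, held 35.1% of the summed level, and the 10 highest held 57.2%. In the second quantification Etfb and Lpl lay above Acadm and Hadha in both animals, so the last 2 places depend on the quantification.

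The levels spread widely below those leaders. By mean TPM, 9 genes were at 100 or more, 20 at 50 or more, 29 at 20 or more and 36 at 5 or more. The lowest was Acsl5 at 1.60 ± 0.219 TPM and the highest was Fabp3 at 361 ± 57.1 TPM (SD, n = 2 each). In the order of levels, 23 of the 39 neighbouring pairs overlapped, so that the 2 values of the higher gene did not both exceed those of the next. Fabp3 stood clear of all others, whereas Acadvl, Hadhb, Acadm, Hadha, Lpl and Etfb, in that order, each overlapped the next of them. That overlap holds in the first quantification. In the second, Acadvl and Hadhb lay clear above Acadm, Hadha, Lpl and Etfb. There Acadvl exceeded Acadm 1.55 times in animal 1 and 1.61 times in animal 2.

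**Figure D1:**
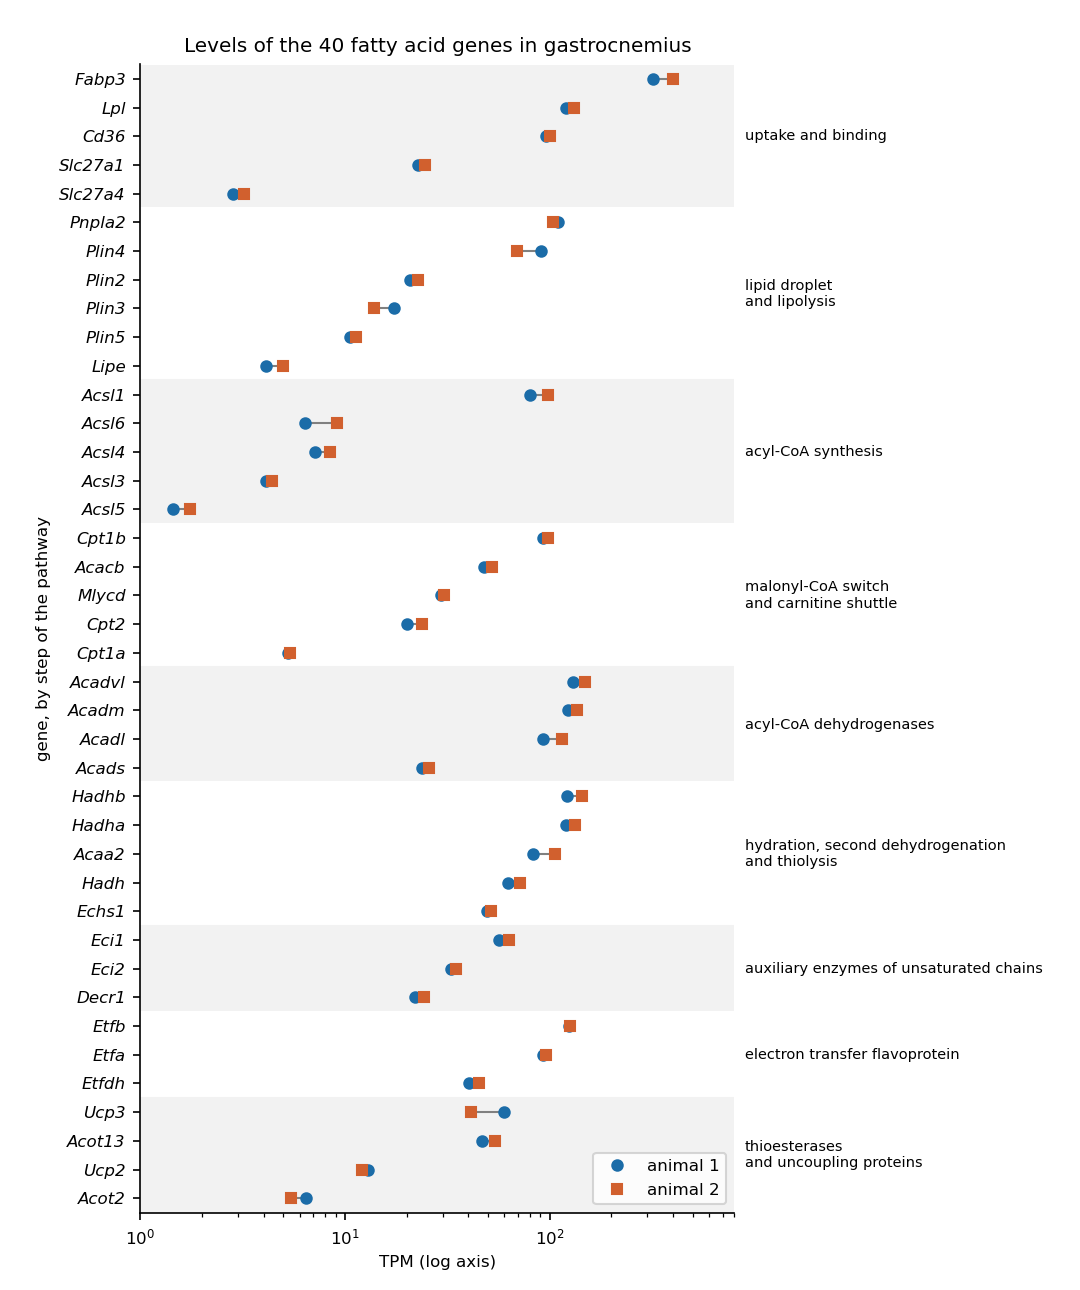
TPM of each of the 40 genes on a log axis, with the value of animal 1 as a circle and of animal 2 as a square, grouped from top to bottom by step of the pathway. Most steps are led by genes near 100 TPM, Fabp3 lies highest at 320.2 TPM in animal 1 and 401 TPM in animal 2, and the acyl-CoA synthetases other than Acsl1 lie below 10 TPM.

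Among the 5 genes of uptake and binding, Fabp3, the fatty acid binding protein of heart and skeletal muscle, led with 320.2 TPM in animal 1 and 401 TPM in animal 2 (chr4:130308595-130315463, plus strand, mm10). Lpl, the lipase that frees fatty acids from circulating triglyceride, had 119.8 TPM in animal 1 and 132 TPM in animal 2. Cd36, the fatty acid translocase of the cell surface, had 95.6 TPM in animal 1 and 100.6 TPM in animal 2. These 3 genes stood far above the fatty acid transport proteins. Slc27a1, which encodes FATP1, had 22.7 TPM in animal 1 and 24.6 TPM in animal 2. Slc27a4, which encodes FATP4, trailed the step with 2.82 TPM in animal 1 and 3.22 TPM in animal 2.

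Of the 10 remaining genes in the Fabp and Slc27a families, 2 were detected, Fabp4 and Fabp5. Fabp4, a binding protein of adipocytes and capillary endothelium, had 61.4 TPM in animal 1 and 69.8 TPM in animal 2. Fabp5 had 2.17 TPM in animal 1 and 4.73 TPM in animal 2. Of these 10 genes, 3 had enough counts for the test given later. Of these 3, Fabp5 was called higher in animal 2, meaning that the 2 libraries differed beyond counting error. Over all genes tested, 6.49% were called in that direction. Fabp3 held 83.9 ± 0.619% of the summed TPM of Fabp1 to Fabp7 (SD, n = 2), and Slc27a1 held 86.6 ± 0.531% of that of Slc27a1 to Slc27a6. Such shares count transcripts of every annotated class, coding or not. Vldlr and Gpihbp1, the receptor and the capillary anchor that work with lipoprotein lipase, were among the 4 of 8 of its listed partners that were detected. Of those partners 4 could be tested, and 2 were called higher in animal 1, Gpihbp1 and Angptl4, and 1, Vldlr, in animal 2. Gpihbp1 had 17.6 TPM in animal 1 and 13.9 TPM in animal 2, which left a ratio of Lpl to Gpihbp1 of 6.82 in animal 1 and 9.46 in animal 2.

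Lipolysis was led by Pnpla2, the adipose triglyceride lipase ATGL, with 109.6 TPM in animal 1 and 104 TPM in animal 2. Lipe, the hormone-sensitive lipase that takes the following step, trailed with 4.09 TPM in animal 1 and 4.99 TPM in animal 2. The ratio of Pnpla2 to Lipe was 26.8 in animal 1 and 20.8 in animal 2. Mgll, the monoglyceride lipase that ends the sequence, had 13.3 TPM in animal 1 and 15.6 TPM in animal 2.

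Of the perilipins, which coat lipid droplets, Plin4 was highest with 91.2 TPM in animal 1 and 69.3 TPM in animal 2, and Plin2 followed with 20.8 TPM in animal 1 and 22.8 TPM in animal 2. Plin3 had 17.4 TPM in animal 1 and 13.8 TPM in animal 2. Plin5, the perilipin of oxidative tissues that ties droplets to mitochondria, had 10.5 TPM in animal 1 and 11.3 TPM in animal 2. The order was the same in both animals. Plin4 held 64.6% of the summed TPM of Plin1 to Plin5 in animal 1 and 58.8% in animal 2, while Plin1, the perilipin of adipocytes, held 0.857% in animal 1 and 0.611% in animal 2. Among 12 listed droplet partners and lipase regulators 7 were detected, led by Fitm1, a muscle protein of droplet formation, at 114 TPM in animal 1 and 129 TPM in animal 2. Of the 12, 11 could be tested, and Mgll and Fitm2 were called, both higher in animal 2.

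Acyl-CoA synthetases join fatty acids to coenzyme A. Acsl1 led this step with 80.1 TPM in animal 1 and 98.0 TPM in animal 2, and held 80.6 ± 0.176% of the summed TPM of the 5 Acsl genes (SD, n = 2). Acsl6 had 6.41 TPM in animal 1 and 9.18 TPM in animal 2, and Acsl4 had 7.15 TPM in animal 1 and 8.42 TPM in animal 2, so these overlapped. Acsl3 had 4.10 TPM in animal 1 and 4.41 TPM in animal 2. Acsl5 trailed with 1.44 TPM in animal 1 and 1.75 TPM in animal 2. No Acsl gene other than Acsl1 reached 10 TPM in either animal.

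Entry into the mitochondrion is set by carnitine palmitoyltransferase 1, which malonyl-CoA inhibits. The muscle isoform Cpt1b had 92.8 TPM in animal 1 and 98.3 TPM in animal 2 (chr15:89416405-89425863, minus strand, mm10). The liver isoform Cpt1a had 5.24 TPM in animal 1 and 5.41 TPM in animal 2. Cpt1b held 93.9 ± 0.426% of the summed TPM of Cpt1a, Cpt1b and Cpt1c (SD, n = 2) and exceeded Cpt1a 17.7 times in animal 1 and 18.2 times in animal 2. Over the aligned bases of their longest coding sequences, Cpt1b and Cpt1a were 66.3% identical. Cpt2, the inner membrane transferase, had 20.2 TPM in animal 1 and 23.9 TPM in animal 2.

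Acacb, which makes malonyl-CoA at the mitochondrial surface, had 47.5 TPM in animal 1 and 52.1 TPM in animal 2, and Mlycd, which breaks malonyl-CoA down, had 29.5 TPM in animal 1 and 30.5 TPM in animal 2. Acacb exceeded Acaca, the isoform of fatty acid synthesis, 8.95 times in animal 1 and 9.98 times in animal 2. Crat, the carnitine acetyltransferase that buffers acetyl-CoA, was highest of 8 listed genes of carnitine supply and acylcarnitines. It had 123 TPM in animal 1 and 142 TPM in animal 2. Of that list 7 genes could be tested, and Crat was the 1 called, higher in animal 2. Slc25a20, the carrier that exchanges acylcarnitine for carnitine, followed with 22.0 TPM in animal 1 and 26.3 TPM in animal 2. Its level was thus close to that of Cpt2 in both animals in the first quantification. In the second, Slc25a20 had 30.5 TPM in animal 1 and 37.2 TPM in animal 2. Cpt2 there had 24.7 TPM in animal 1 and 26.6 TPM in animal 2.

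**Figure D2:**
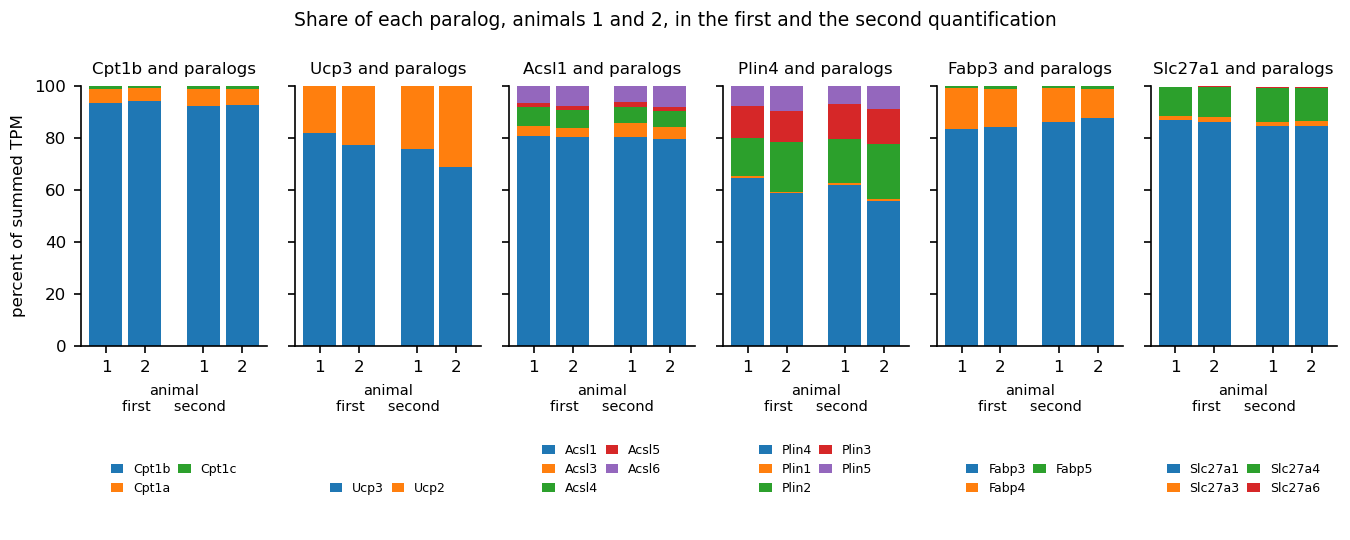
Percent of the summed TPM taken by each paralog in 6 families, as stacked bars for animals 1 and 2 in the first and in the second quantification. The blue share at the bottom is the leading gene, from 93.9% for Cpt1b down to 61.7% for Plin4 as means of the first quantification, and the leading gene is the same in every bar.

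The acyl-CoA dehydrogenases differ in the chain length they accept. Acadvl, for very long chains, had 131 TPM in animal 1 and 149 TPM in animal 2. Acadm, for medium chains, had 123 TPM in animal 1 and 135 TPM in animal 2. Acadl, for long chains, had 92.6 TPM in animal 1 and 115 TPM in animal 2. Acads, for short chains, trailed with 23.7 TPM in animal 1 and 25.7 TPM in animal 2, and Acadvl exceeded it 5.52 times in animal 1 and 5.77 times in animal 2. The order of Acadm over Acadl held in both animals in the first quantification, with ratios of 1.33 in animal 1 and 1.18 in animal 2. In the second quantification those ratios were 1.07 in animal 1 and 0.972 in animal 2, so their order was not settled. Of 17 other listed dehydrogenases, mitochondrial enzymes and thioesterases, 14 were detected. Of these 17, 15 could be tested, and none was called in either direction. The highest were Ivd with 49.9 TPM in animal 1 and 53.1 TPM in animal 2 and Acadsb with 48.6 TPM in animal 1 and 46.9 TPM in animal 2.

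Hadha and Hadhb encode the 2 subunits of the mitochondrial trifunctional protein, which carries out the later reactions on long chains. Hadhb had 121 TPM in animal 1 and 143 TPM in animal 2, and Hadha had 120.2 TPM in animal 1 and 134 TPM in animal 2. Their ratio, Hadha over Hadhb, was 0.989 in animal 1 and 0.933 in animal 2, and their values overlapped. In the second quantification the ratio was 0.676 in animal 1 and 0.634 in animal 2, so near equality holds in the first quantification only. Of the enzymes for shorter chains, Acaa2, a thiolase, had 83.0 TPM in animal 1 and 106 TPM in animal 2. Hadh, the short-chain hydroxyacyl-CoA dehydrogenase, had 62.4 TPM in animal 1 and 72.0 TPM in animal 2. Echs1, the short-chain hydratase, trailed with 49.7 TPM in animal 1 and 51.5 TPM in animal 2.

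Unsaturated fatty acids need isomerases and a reductase before they can pass through the cycle. The isomerase Eci1 had 56.9 TPM in animal 1 and 63.1 TPM in animal 2. The isomerase Eci2 had 32.8 TPM in animal 1 and 34.8 TPM in animal 2. The reductase Decr1 trailed with 21.9 TPM in animal 1 and 24.4 TPM in animal 2. All 3 lay below Hadha and Hadhb in both animals.

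Etfa and Etfb encode the 2 subunits of the electron transfer flavoprotein, and Etfdh the oxidoreductase that hands its electrons to ubiquinone. Etfb had 124 TPM in animal 1 and 126 TPM in animal 2, against 92.9 TPM in animal 1 and 96.0 TPM in animal 2 for Etfa. The ratio of Etfb to Etfa was 1.34 in animal 1 and 1.32 in animal 2, and 1.07 in animal 1 and 1.23 in animal 2 in the second quantification. Etfdh trailed with 40.5 TPM in animal 1 and 45.0 TPM in animal 2.

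Of the thioesterases, which release free fatty acid from acyl-CoA, Acot13 had 46.8 TPM in animal 1 and 53.8 TPM in animal 2, and the mitochondrial Acot2 had 6.48 TPM in animal 1 and 5.43 TPM in animal 2. Ucp3, the uncoupling protein of skeletal muscle, had 59.8 TPM in animal 1 and 41.2 TPM in animal 2. Ucp2, its more widely expressed paralog, had 13.02 TPM in animal 1 and 12.1 TPM in animal 2. Ucp3 held 82.1% of the summed TPM of Ucp2 and Ucp3 in animal 1 and 77.2% in animal 2. Over the aligned bases of their longest coding sequences, the coding regions of Ucp3 and Ucp2 were 75.2% identical.

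The 2 libraries were then compared with each other, as a measure of how far these levels differ between animals. Expected counts were scaled for library size by TMM and tested gene by gene with a two-sided exact binomial test, and p-values were adjusted by Benjamini-Hochberg over 14754 genes. Calls were made at an adjusted p under 0.05. The test sets these 2 libraries against counting error alone, so a call says nothing of a condition or of other animals. All 40 genes had the summed count of 20 that the test required.

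Of the 40 genes, 6 (15%) were called higher in animal 1 and 7 (17.5%) in animal 2. The background over all genes tested was 7.59% for animal 1 and 6.49% for animal 2, and the power of this test grows with the count. The same background stands beside the calls given for the other lists, in some of which not every gene could be tested. In a set of nearer level, the nuclear protein-coding genes whose mean TPM was at least 5, those shares were 11.8% for animal 1 and 10.5% for animal 2. The median absolute log2 ratio of the 40 genes was 0.086 and that of the nearer set was 0.090. These sets are not matched for level, as the nearer set reaches down to 5 TPM and the median of the 40 genes was 47.7 TPM. Counting error widens ratios at low counts, so the similar medians do not show that the 40 genes differed as much as others of their level. Their median log2 ratio, animal 1 over animal 2, was -0.036, against 0.0015 over all genes tested. By the ratio of deposited TPM, 34 genes were higher in animal 2 and 6 in animal 1, but that scale moves the median of all genes to -0.11, and directions below are relative to TMM scaling unless stated.

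The largest difference was that of Ucp3, with 3977 counts in animal 1 and 2883 counts in animal 2, a log2 ratio of 0.67 (exact 95% counting interval 0.60 to 0.74, adjusted p = 1.93e-78 by the exact binomial test). It was the 1 member called at over 1.5-fold, 2.5% of the 40. Over all genes tested, 2.12% were called over 1.5-fold higher in animal 1 and 1.44% over 1.5-fold higher in animal 2, and in the set of nearer level the shares were 1.31% for animal 1 and 0.486% for animal 2. By library totals or the ratio of TPM, no member was over 1.5-fold apart: the TPM ratio of Ucp3 was 0.54 on the log2 scale. Ucp2 differed in the same direction by 0.23 on the log2 scale without being called (adjusted p = 0.0997, exact binomial test).

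Lipid droplet genes supplied 3 of the 6 genes higher in animal 1. Their step has 6 members. In that direction 7.59% of all genes tested were called, and 11.8% of the set of nearer level. Plin4 had 14878 counts in animal 1 and 11978 counts in animal 2, a log2 ratio of 0.52, Plin3 had a log2 ratio of 0.39 and Pnpla2 of 0.21. Plin2 and Plin5 were not called. Acot2 was called with a log2 ratio of 0.37, a call lost by the ratio of TPM (adjusted p = 0.0558, exact binomial test). Etfb was called with a log2 ratio of 0.15, but its deposited TPM was the lower in animal 1, with a TPM log2 ratio of -0.024, so its direction depends on the scale. Etfa and Etfdh were not called.

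The 7 genes called higher in animal 2 were Fabp3, Acadl, Acaa2, Acsl1, Hadhb, Acadvl and Acadm. Their log2 ratios were -0.21 for Fabp3 and Acadl, -0.19 for Acaa2, -0.12 for Acsl1, -0.093 for Hadhb, -0.084 for Acadvl and -0.078 for Acadm. Of the acyl-CoA dehydrogenases 3 of 4 were called, Acads with a log2 ratio of -0.0042 being the other. In that direction 6.49% of all genes tested were called, and 10.5% of the set of nearer level. The 3 called had more counts than Acads, and the power of the test grows with the count. All 5 Acsl genes had ratios below 0, of which Acsl1 was called. None of the 7 reached 1.5-fold. All 13 called genes had the same sign in the second quantification, and 12 of 13 by the ratio of TPM.

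**Figure D3:**
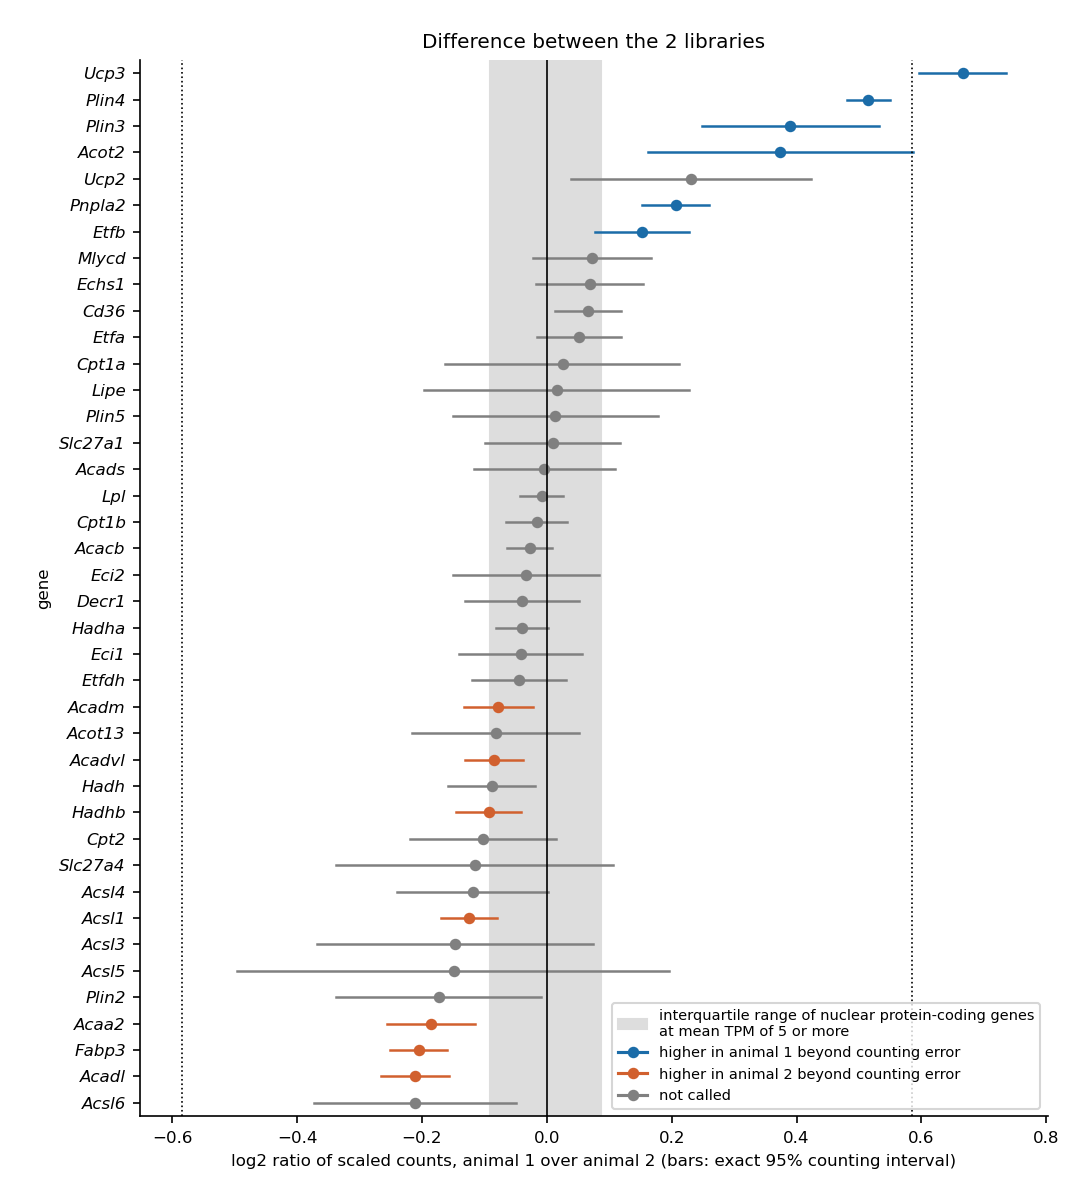
Log2 ratio of scaled counts, animal 1 over animal 2, for the 40 genes from highest to lowest, with exact 95% counting intervals, the grey band marking the interquartile range of the nuclear protein-coding genes of nearer level and dotted lines marking 1.5-fold. Ucp3 at 0.67 lies past the dotted line, Plin4 at 0.52 and Plin3 at 0.39 follow, and Acsl6 and Acadl at -0.21 are the lowest.

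Fibre and adipocyte markers moved between the same libraries. All 7 slow fibre markers were called higher in animal 2 at over 1.5-fold; their median log2 ratio was -0.80 and none was at 0. Of 7 fast fibre markers 6 were called higher in animal 1, none over 1.5-fold, and their median log2 ratio was 0.25, although Mylpf fell below 0 by library totals and by the ratio of TPM, where it was at -0.054. The summed level of 8 adipocyte markers, which include Lipe, was 17.6 TPM in animal 1 and 12.9 TPM in animal 2. Of the 8, 2 were detected, and none was at 0. All 6 that could be tested had ratios above 0. Lipe, however, was below 0 by library totals, by spike-ins, in the second quantification and by the ratio of TPM, where it was at -0.29. Retn and Adig, which could not be tested, were higher in animal 2. Retn had 0.36 TPM in animal 1 and 0.38 TPM in animal 2, and Adig had 0.35 TPM in animal 1 and 0.61 TPM in animal 2. Adipoq, the adipocyte hormone adiponectin, had 2.07 TPM in animal 1 and 0.74 TPM in animal 2 and was called, as was Cfd, the adipocyte protease adipsin, with 8.16 TPM in animal 1 and 4.90 TPM in animal 2. All 9 endothelial markers were detected, with summed levels of 136 TPM in animal 1 and 149 TPM in animal 2; 1 was called higher in animal 1 and 2 in animal 2, of which Kdr, a receptor of vascular growth factor, had 4.31 TPM in animal 1 and 7.59 TPM in animal 2. Angptl4, which inhibits lipoprotein lipase, had 5.32 TPM in animal 1 and 3.16 TPM in animal 2, a log2 ratio of 0.93, and was called. The part of fibre, adipocyte or vessel content in the differences of Fabp3, Plin4, Ucp3 and the other called members was not tested.

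Which transcripts stand behind these gene levels was read from the percent of each gene's TPM taken by each annotated transcript. In both animals and both quantifications 32 of the 40 genes had the same leading transcript, and in 28 of these it held the longest annotated coding sequence. The median gene gave 81.7% of its TPM to transcripts with the longest coding sequence, and 76.4% in the second quantification. For 17 genes that share was 90% or more, and for 9 it was under 50%. Among the 17, Fabp3, Acot2, Plin4, Plin5 and Acot13 gave all of their TPM to such transcripts. For all of these but Acot13 the annotation left no other outcome. Fabp3 and Acot2 have 1 annotated transcript each, and both transcripts of Plin4 and of Plin5 hold the longest coding sequence. Cpt1b-201 took 84.8 ± 2.63% of Cpt1b and Ucp3-201 took 92.1 ± 0.323% of Ucp3 (SD, n = 2 each).

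Several highly ranked genes did not follow that pattern. Hadha-201, annotated as a processed transcript with no coding sequence, took 70.7 ± 0.392% of Hadha, and 75.1% in the second quantification. Its exons nevertheless hold 93.1% of the coding bases of Hadha-205, the coding transcript, so short reads tell them apart by few positions. Pnpla2-201, annotated as subject to nonsense-mediated decay, took 59.7 ± 0.384% of Pnpla2, and 72.0% in the second quantification. Its exons hold all 1458 coding bases of Pnpla2-203. Transcripts annotated as protein-coding took 18.4% of Hadha, and in Pnpla2 the longest coding form took 2.59% and shorter coding forms 32.6%. In Slc27a1, transcripts without coding sequence took 54.9% and those with the longest coding sequence 41.7%. The second quantification gave 43.7% and 56.3%. In Slc27a4 the longest coding sequence took 95.4%, so the lead of Slc27a1 over Slc27a4 is not one of coding transcripts alone.

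Some genes were led by short transcripts. Plin3-202, 562 bases long, took 57.6 ± 1.86% of Plin3 and holds 30.8% of the coding bases of Plin3-201. Plin2-208, 588 bases long and without coding sequence, took 38.1% of Plin2 in animal 1 and 36.2% in animal 2, where Plin2-201, with the longest coding sequence, took 38.5% and led. Ucp2-210 took 55.6 ± 2.28% of Ucp2. For other genes the transcript could not be settled. Lipe-208 took 78.2% of Lipe in animal 1 and 41.0% in animal 2, at 348 counts in animal 1 and 396 counts in animal 2. Cd36-203 took 38.1% of Cd36 in the first quantification and 0.244% in the second, and Plin4-202 took 99.7% of Plin4 in the first and 45.5% in the second, against Plin4-201 with the same coding length. Hadhb-208, a retained intron of 507 bases, took 26.8% of Hadhb in the first and 51.3% in the second, beside the change in the ratio of Hadha to Hadhb.

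**Figure D4:**
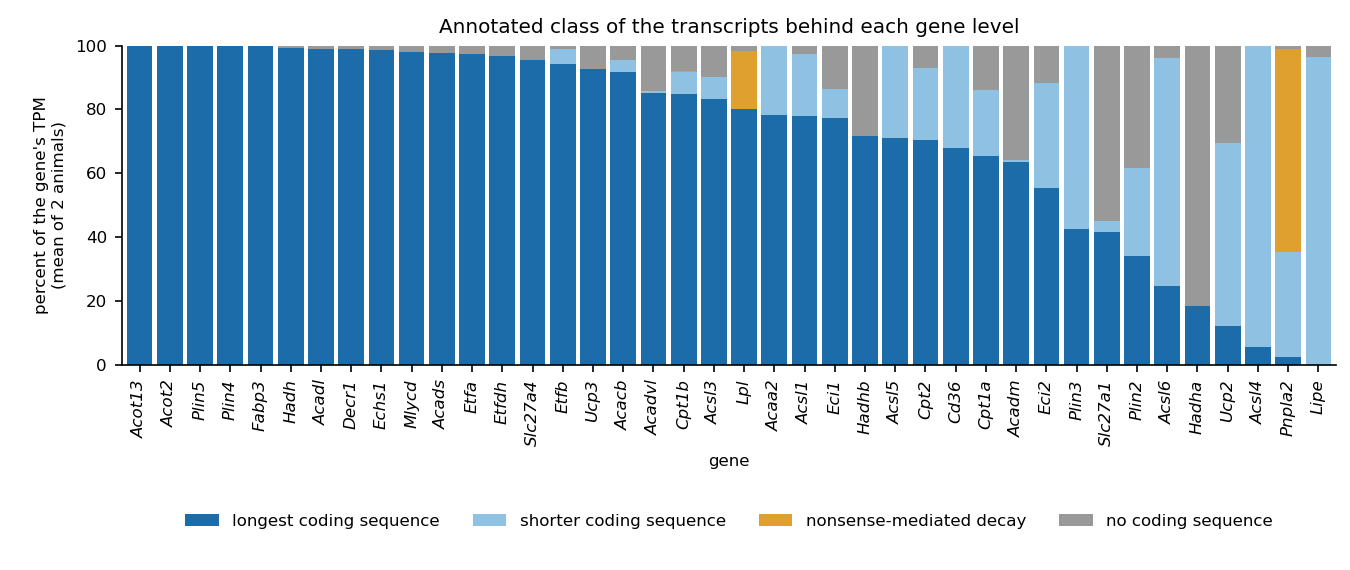
Percent of each gene's TPM, as the mean of the 2 animals in the first quantification, in transcripts with the longest annotated coding sequence, a shorter coding sequence, a nonsense-mediated decay annotation or no coding sequence. Genes run from the highest to the lowest share in the longest coding sequence; Hadha with 81.6% in transcripts without coding sequence and Pnpla2 with 63.6% in decay transcripts stand at the right.

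Some members share sequence with other genes, and their counts are less certain. Stretches of 31 bases were compared between the annotated transcripts of each member and those of every other gene, and 13 members shared none. Cpt1b shared 79.7% of its stretches with Gm44502, an annotated gene that spans it on the same strand, to which 111 counts were assigned in animal 1 and 0 in animal 2. Etfb shared 47.3% with Gm45233, which had 0 counts in animal 1 and 4.05 in animal 2. Fabp3 shared 35.2% with its pseudogene Fabp3-ps1, at 2.99 TPM in animal 1 and 4.24 TPM in animal 2. Acot2 shared 29.9% with its paralog Acot1, at 1.31 TPM in animal 1 and 1.59 TPM in animal 2, and their aligned coding bases were 95.5% identical. Hadhb shared 19.5% with the pseudogene Gm13910, at 15.6 TPM in animal 1 and 15.9 TPM in animal 2, so the division of reads between these 2 is uncertain. Expected counts were not whole, by over 0.005, for 9 members.

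Overlap was taken from gene start to gene end, introns included. By this measure a gene on the opposite strand overlapped 15 members, and for 6 of them that gene had a mean TPM of 1 or more. Acsl6 was overlapped over 13111 bases by the antisense gene Gm12224, which at 33.5 TPM in animal 1 and 36.3 TPM in animal 2 exceeded Acsl6 itself. The use of strand in counting is not given in the sources used here, and the overlap of exons was not measured. Whether the level of Acsl6 includes reads of Gm12224 is therefore not known. The same holds for Acsl5, which Zdhhc6 overlapped over 26430 bases at 5.29 TPM in animal 1 and 6.31 TPM in animal 2, above Acsl5 itself. Ucp3 was overlapped by the antisense gene Gm10603, to which 13 counts were assigned in animal 1 and 11 in animal 2.

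Members also lie beside each other in the genome. Ucp3 (chr7:100472990-100486432) and Ucp2 (chr7:100493337-100502020) follow each other on the plus strand with 6904 bases between them, and differ in level as given above. Plin4 (chr17:56100591-56109803) and Plin5 (chr17:56111601-56117596) lie on the minus strand with 1797 bases between them. Of that pair Plin4 was called and Plin5 was not. Hadha (chr5:30118304-30155162, minus strand) and Hadhb (chr5:30155248-30184593, plus strand) are transcribed away from each other with 85 bases between their annotated ends, so their promoter windows, 250 bases before to 50 bases after each RefSeq start, share 228 bases. For this overlap the Hadhb window is shown, from RefSeq on GRCm38.p6, chr5:30155003-30155302, plus strand. Near equality of Hadha and Hadhb held in the first quantification only, and a link between their levels and the shared window was not tested. Capitals mark the 85 bases between the 2 genes.
Hadhb: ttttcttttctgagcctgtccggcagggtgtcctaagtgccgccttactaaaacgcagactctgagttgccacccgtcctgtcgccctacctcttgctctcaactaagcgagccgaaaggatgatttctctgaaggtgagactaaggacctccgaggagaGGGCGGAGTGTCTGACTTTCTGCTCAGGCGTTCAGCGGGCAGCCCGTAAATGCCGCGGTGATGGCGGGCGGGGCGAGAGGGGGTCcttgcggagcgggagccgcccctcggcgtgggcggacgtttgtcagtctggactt

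Promoter windows of 300 bases were available for 35 of the 40 genes in the RefSeq table, with none for Lpl, Acaa2, Decr1, Acot13 and Cpt1b. Motifs were searched as exact letters on both strands, and a gene was counted where any of its windows held a match. TCAAGGTCA, an element bound by estrogen-related receptors, was found in the window of 1 member, Acsl6, and in 0.466% of 27025 genes. The consensus direct repeat bound by PPAR and its partner RXR, in which copies of AGGTCA stand 1 base apart, was found in none of the 35 and in 0.0481% of all genes. These receptors are known regulators of the pathway, but exact letters in so short a window are a narrow search, and a missing match says nothing of their binding.

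Shorter motifs were searched after the first motifs had been matched. AGGTCA, the single element of the repeat and a part of both longer motifs, was present in 10 of 35 windows or 28.6%, against 18.1% of all genes and 16.4% of protein-coding genes. The 10 were Cd36, Plin2, Plin5, Acsl6, Acacb, Cpt1a, Acadvl, Acadm, Echs1 and Ucp3. GGGCGG, the core of the GC box, was present in 25 windows or 71.4%, against 38.2% of all genes and 51.0% of protein-coding genes. TATAAA was present in 1 window, that of Acacb, or 2.86%, against 15.7% of all genes and 14.3% of protein-coding genes. The median GC content of the members' windows was 61.3%, from 43.0% in Cd36 to 74.0% in Acsl3, against 57.0% for protein-coding genes. These shares are descriptions, with no test.

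The windows of 3 of these genes are shown, from RefSeq on GRCm38.p6, because they carry the motifs in members the results turn on. Acadm was among the highest genes, Ucp3 differed most between the 2 libraries, and Acsl6 held the longer element. Capitals mark AGGTCA on either strand in Acadm (chr3:153944594-153944893, minus strand), starting 249 bases before the start, and in Ucp3 (chr7:100472741-100473040, plus strand), where its copies start 149 and 44 bases before the start. In Acsl6 (chr11:54303574-54303873, plus strand) they mark TCAAGGTCA, read on the opposite strand and starting 167 bases before the start. A further AGGTCA match in the Acsl6 window is left in lower case.
Acadm: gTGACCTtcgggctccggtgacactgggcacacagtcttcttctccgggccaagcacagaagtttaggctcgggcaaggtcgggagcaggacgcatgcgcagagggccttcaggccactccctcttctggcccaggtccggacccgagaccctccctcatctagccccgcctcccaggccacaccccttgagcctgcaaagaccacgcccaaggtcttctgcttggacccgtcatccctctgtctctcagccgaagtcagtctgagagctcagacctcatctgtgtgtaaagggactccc
Ucp3: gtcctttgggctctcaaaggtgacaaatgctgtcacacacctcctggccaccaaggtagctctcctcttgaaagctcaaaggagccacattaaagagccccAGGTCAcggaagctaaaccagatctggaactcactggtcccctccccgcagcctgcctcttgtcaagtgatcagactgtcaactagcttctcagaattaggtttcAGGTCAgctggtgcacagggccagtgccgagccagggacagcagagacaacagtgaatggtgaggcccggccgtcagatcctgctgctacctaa
Acsl6: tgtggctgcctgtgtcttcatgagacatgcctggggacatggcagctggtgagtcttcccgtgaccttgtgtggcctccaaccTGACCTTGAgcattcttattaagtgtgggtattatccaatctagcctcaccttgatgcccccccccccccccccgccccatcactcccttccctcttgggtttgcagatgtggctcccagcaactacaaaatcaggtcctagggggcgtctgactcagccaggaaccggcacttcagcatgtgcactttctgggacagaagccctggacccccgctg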

How the data were processed

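Expected counts, TPM, posterior mean TPM and the percent of each gene's abundance per transcript were computed by the authors from a transcriptome alignment (the first quantification, in columns that RSEM writes, per the file headers). Estimated counts and TPM of the second quantification, in columns that kallisto writes, are deposited per transcript and were summed to genes. Both rest on mm10 and GENCODE M21, per the descriptions deposited with the tables. Neither tool versions nor strand handling in counting is given in the sources used here.

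Of 81881 gene entries, 96 spike-ins and 26248 entries named only by a number, which held 1 count in each library, were left out. Spike-ins held 0.543% of expected counts in animal 1 and 0.573% in animal 2. Deposited TPM is relative to all entries, so abundant RNAs of any kind lower the TPM of the rest. Levels are deposited TPM, as mean ± SD over 2 animals.

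Expected counts were rounded to whole numbers, scaled by TMM (edgeR 4.0.16, R 4.3.3) and compared by an exact binomial test (SciPy 1.17.1), with a minimum summed count of 20, a prior count of 0.5 and Benjamini-Hochberg adjustment. Intervals are at 95%. They and the floor of 3 counts that a count of 0 allows (0.0859 CPM in animal 1 and 0.0806 CPM in animal 2) cover counting error alone, because no molecular identifiers show which reads are separate molecules. Median-of-ratios size factors (DESeq2 1.42.0), library totals, spike-ins, the TPM ratio, other filters and prior counts, posterior means and the second quantification were alternatives. Tested on simulated data over 14746 genes, the comparison called 75 of 100 genes made 1.5-fold higher, 97 of 100 made 2-fold higher and, of 14546 left equal, 12; the simulation holds sampling error alone.

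Members, gene lists and tests were chosen with earlier results of these data known. Both animals' values are given for members that lead or trail a step, for leading paralogs and their nearest paralog and for any member over 1.5-fold apart. From the other lists, up to 3 genes of highest level and any over 1.5-fold apart could be named. The remaining members were added because every member is accounted for.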

Additional observations from a re-analysis of the deposited data

How the results depend on the processing

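All 40 genes were detected under every alternative except the threshold of 5 TPM, which 36 passed. The median level was 68.4 TPM in the second quantification and 120.1 TPM with TPM rescaled to nuclear protein-coding genes, and ran from 47.2 TPM to 48.2 TPM with either animal left out. In the second quantification the leading shares were 92.6% for Cpt1b, 72.3% for Ucp3, 80.1% for Acsl1, 87.2% for Fabp3 and 84.6% for Slc27a1, and by posterior mean TPM 93.1% for Cpt1b, 78.4% for Acsl1 and 84.6% for Slc27a1. The leading paralog was the same throughout. With library totals, the TPM ratio and spike-ins as the scale, 20, 21 and 11 members were called higher in animal 2, against 7 with TMM. Library totals and the TPM ratio left 0 members over 1.5-fold apart and median log2 ratios of -0.15 and -0.13. These scales also moved the medians of all genes tested, to -0.11 for both, and over all genes the share called toward animal 1 and toward animal 2 was 7.59% and 6.49% with TMM, 4.03% and 19.5% with library totals, 6.21% and 24.8% with the TPM ratio and 6.35% and 9.27% with spike-ins. By the TPM ratio 9 members changed sign. Of these 3 were called by TMM or by the TPM ratio, with TPM log2 ratios of -0.074 for Cd36, -0.29 for Lipe and -0.024 for Etfb, and the other 6 (Slc27a1, Plin5, Mlycd, Cpt1a, Echs1 and Etfa) by neither. In the second quantification 5 members changed sign (Slc27a1, Lipe, Plin5, Acads and Eci2), of which 0 were called in either quantification.

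No paired analysis was possible because the series has 1 group. With 2 animals, an SD is a rough guide to variation, no test over animals can be made, and a call rests on counting error. Genes with few counts (Acsl5, Slc27a4, Acsl3) have wide intervals.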

Other observations

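Fuel genes outside the pathway were read from lists of neighbouring routes. Of 7 genes of ketone body use 5 were detected. All 7 could be tested, and 2 were called higher in animal 2. Oxct1, the enzyme that activates ketone bodies outside the liver, had 131 TPM in animal 1 and 145 TPM in animal 2. Of 15 genes of peroxisomal beta-oxidation 11 were detected. Of these 15, 12 could be tested, and 2 were called higher in animal 2. Scp2 led with 46.5 TPM in animal 1 and 61.0 TPM in animal 2.

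Of 14 genes of triglyceride synthesis 11 were detected, led by Lpin1, a phosphatidate phosphatase, with 77.1 TPM in animal 1 and 75.5 TPM in animal 2. On that list 11 genes could be tested, with 2 calls toward animal 1 and 1 toward animal 2. Of 9 genes of fatty acid synthesis 8 were detected. All 9 could be tested, with 1 call toward animal 1 and 2 toward animal 2. Me1, malic enzyme, led this list with 46.8 TPM in animal 1 and 50.3 TPM in animal 2.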
